A study of Mus musculus with 45 samples.

Results

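Mouse embryonic stem cells were compared with uninduced neural progenitors over 17 of the 45 libraries of a long-read RNA sequencing series run on Oxford Nanopore flow cells. The libraries were chosen by their labels: every stem cell library and every library of progenitors taken before induction. In the R10 chemistry there were 7 stem cell libraries, of which 2 came from line O4G, 3 from line R1 and 2 from R1 clone 3, which is 1 clone. They were set against 4 progenitor libraries, 2 from wild-type, 1 from OKMS and 1 from OKS cells. In the R9 chemistry 2 stem cell libraries, 1 of O4G and 1 of R1, were set against 4 progenitor libraries of the same genotypes as in R10. All progenitors had been derived from O4G, a stem cell line that reports Oct4 through GFP and itself descends from R1. OKMS and OKS progenitors carried reprogramming factors under doxycycline control that had not been switched on, with an element labelled Luciferase-AS whose role the labels do not state. Stem cells were kept in 2i-LIF, a serum-free N2B27 medium with the cytokine LIF, the GSK3 inhibitor CHIR-99021 and the MEK inhibitor PD0325901. Progenitors grew on Geltrex in N2B27 with EGF, FGF-2 and heparin. Cell type, medium and part of the line background changed together and cannot be told apart. R9 libraries were direct cDNA of poly(A)-enriched RNA and R10 libraries were PCR cDNA of total RNA. The labels do not say whether libraries of the 2 chemistries came from the same RNA or from separate cultures, so p-values measure the spread between these libraries.

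As background, naive embryonic stem cells hold a self-sustaining network of transcription factors around Oct4 (Pou5f1), Sox2 and Nanog. LIF acts through STAT3, inhibition of GSK3 stabilises beta-catenin, and inhibition of MEK blocks the ERK signal that otherwise drives exit from the naive state. Neural progenitors in EGF and FGF-2 divide as radial glia-like cells, kept by SOX, POU3F, NFI and OLIG factors and by Notch signalling. Both cell types cycle quickly, so the comparison sets a pluripotent against a committed proliferating culture.

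Read depth ran from 1711732 to 4245818 reads in the R10 libraries and from 593009 to 1074415 in R9. Of the 7 stem cell libraries in R10, 6 are numbered in their labels, and the 1 that is not, from line R1, stood apart. It is also the only one whose title names the medium, although the treatment label of all 7 is 2i-LIF. Mitochondrial genes took 0.124% of its CPM against 1.81% to 2.35% in the 6 others, and 0.153% to 1.11% in the R10 progenitors. Incomplete splice matches, transcripts that lack part of the exons of an annotated one, took 10.5% of its TPM against 14.6% to 15.6%, with 7.95% to 9.33% in the R10 progenitors. In R9 the mitochondrial share was lower in stem cells (0.309% to 0.344%) than in progenitors (0.493% to 0.883%), and the shares of incomplete splice matches overlapped (8.65% to 10.1% and 7.74% to 12.7%). Among the 15 protein-coding genes furthest below progenitors by the smaller difference of both chemistries (Olig1, Gpm6b, Olfm2 and 12 named below), that library held the highest stem cell value for 12. Over the 15 genes its value was at a median of 0.579% of the progenitor mean, and the highest value of the 6 numbered libraries was at a median of 0.157%. In the deposited column names the 6 numbered libraries lack a chemistry ending that the unnumbered library and all R10 progenitors carry. Whether the 6 were prepared or sequenced apart is not stated. Between them and the R10 progenitors any such difference cannot be told apart from cell type. The part of these library properties in the differences was not tested, and counts with and without the unnumbered library follow.

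Gene values were CPM, and differences are stem cells minus progenitors in mean log2(CPM + 1), a scale that understates the change of low genes. Calls required a difference of at least 1 and an adjusted p (Benjamini-Hochberg) under 0.05 in limma, and pairs of values in the text give R10 first and R9 second. In R10, 7050 of 15398 genes were called (45.8%), 3452 higher in stem cells (22.4%) and 3598 lower (23.4%). In R9, 5653 of 15728 genes were called (35.9%), 2775 higher (17.6%) and 2878 lower (18.3%). Of 14214 genes tested in both chemistries, 4406 were called in both with the same sign (31.0%), of which 2161 were higher (15.2%) and 2245 lower (15.8%). These made up 62.5% of the R10 calls and 77.9% of the R9 calls, and 9 genes were called with opposite signs. In 4171 of the 4406 genes no stem cell library overlapped a progenitor library in either chemistry, and the same held for 5836 of all 14214 genes tested in both (41.1%). Differences of at least 3 in each chemistry were found for 1157 genes, 578 higher and 579 lower. Across genes, which are not independent replicates, the R10 and R9 differences had a Pearson r of 0.913. Without the unnumbered library 4355 genes were called in both, 4320 of them among the 4406. With it as the sole R10 stem cell library, whose spread had to be taken from the progenitors, 3530 were called, 3304 of them among the 4406. Leaving out the O4G stem cell library in R9 gave 3252 genes and leaving out the R1 library gave 3192. With each library scaled to its median gene, the median difference over all genes shifted by 0.21 in R10 and 0.16 in R9, and 55.6% of the calls were then higher, against 49.0%.

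**Figure D1:**
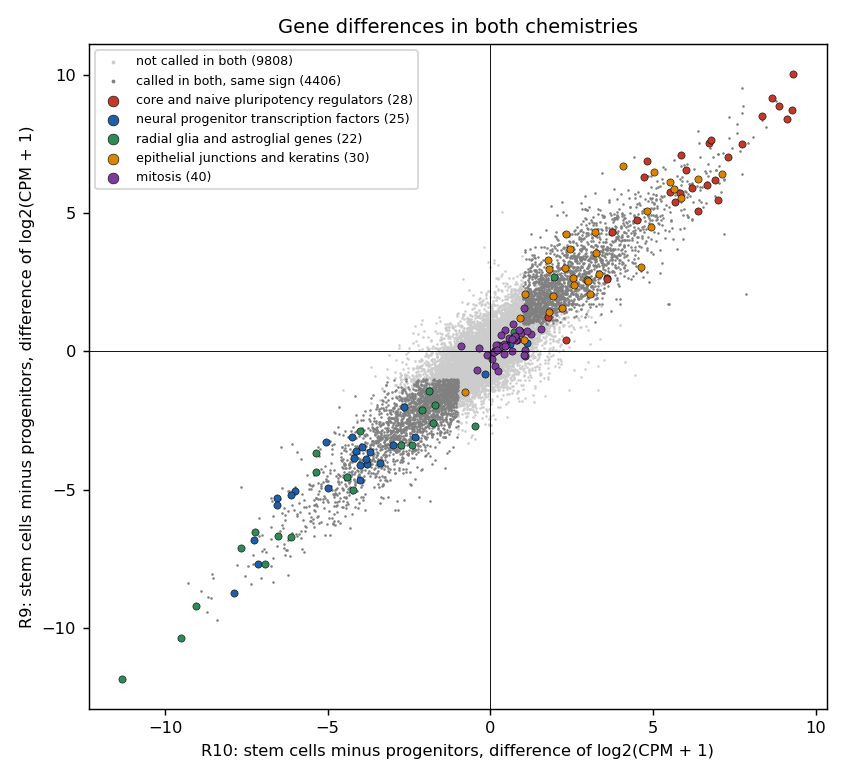
Difference of mean log2(CPM + 1) between stem cells and progenitors in R10 (x axis) and R9 (y axis), 1 point for each of 14214 genes. Dark grey points are the 4406 genes called in both with the same sign. The pluripotency regulators lie at the upper right, the progenitor factors and radial glia genes mostly at the lower left, and the mitosis genes near 0.

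The largest differences among annotated protein-coding genes belonged to the identity of each cell type and to less familiar genes beside it. In these bulk libraries fewer cells of a type and less RNA per cell cannot be told apart. Higher genes outside the pluripotency network included Morc1 (8.07 and 7.77), which represses transposons in the germline, and Trap1a (8.48 and 8.12), an X-linked tumour antigen gene. Chchd10, a mitochondrial intermembrane protein (7.74 and 9.54), stood among the same 15. Lower genes included Tnc, an extracellular matrix glycoprotein (-9.05 and -9.23), Serpine2, a secreted protease inhibitor (-8.42 and -9.72), and Sparcl1 (-8.67 and -8.89), secreted by astroglia. Tmem176a and Tmem176b, neighbouring membrane protein genes, were lower together (-7.30 and -7.69, and -8.89 and -8.68). By class, 1757 of 11958 protein-coding genes were higher and 2007 lower, and 109 of 569 annotated lncRNA genes were called each way. Among 740 loci outside the annotation 191 were higher and 87 lower.

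Gene groups were read by how many of their members tested in both chemistries were called in both, beside 15.2% higher and 15.8% lower for all tested genes. The median difference over all tested genes was -0.052 in R10 and -0.0078 in R9. No test of a group as a whole was made, and a count near or below the shares of all tested genes is no result about its group. A gene with no read in 1 arm passed the filter through the other arm alone, so its direction was fixed beforehand. A gene under 1 CPM throughout 1 arm also passed through the other arm alone, which largely fixed its direction. The number with no read is given below for the identity, germline and epithelial groups, and understates the number so fixed. Of the listed genes, 9 of 28 pluripotency regulators were under 1 CPM in all R10 progenitors. In all R10 stem cells 14 of 30 neural progenitor factors and 7 of 24 radial glia genes were under 1 CPM. Other groups held genes with no read as well, 4 in R10 and 9 in R9 of 37 for axon guidance. By unadjusted p under 0.05 in both chemistries 22.5% of all tested genes were higher and 23.6% lower, which is the background for counts given by unadjusted p. Where limma called 0 members in a direction, edgeR, DESeq2 and the unadjusted p under 0.05 in both chemistries also gave 0 unless a count is stated. For counts of at least 3 called members, the counts under other settings are given where they moved by over 1.5 times. Counts that moved this far with O4G stem cells alone equalled those without the R1 stem cell library in R9 unless stated.

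**Figure D2:**
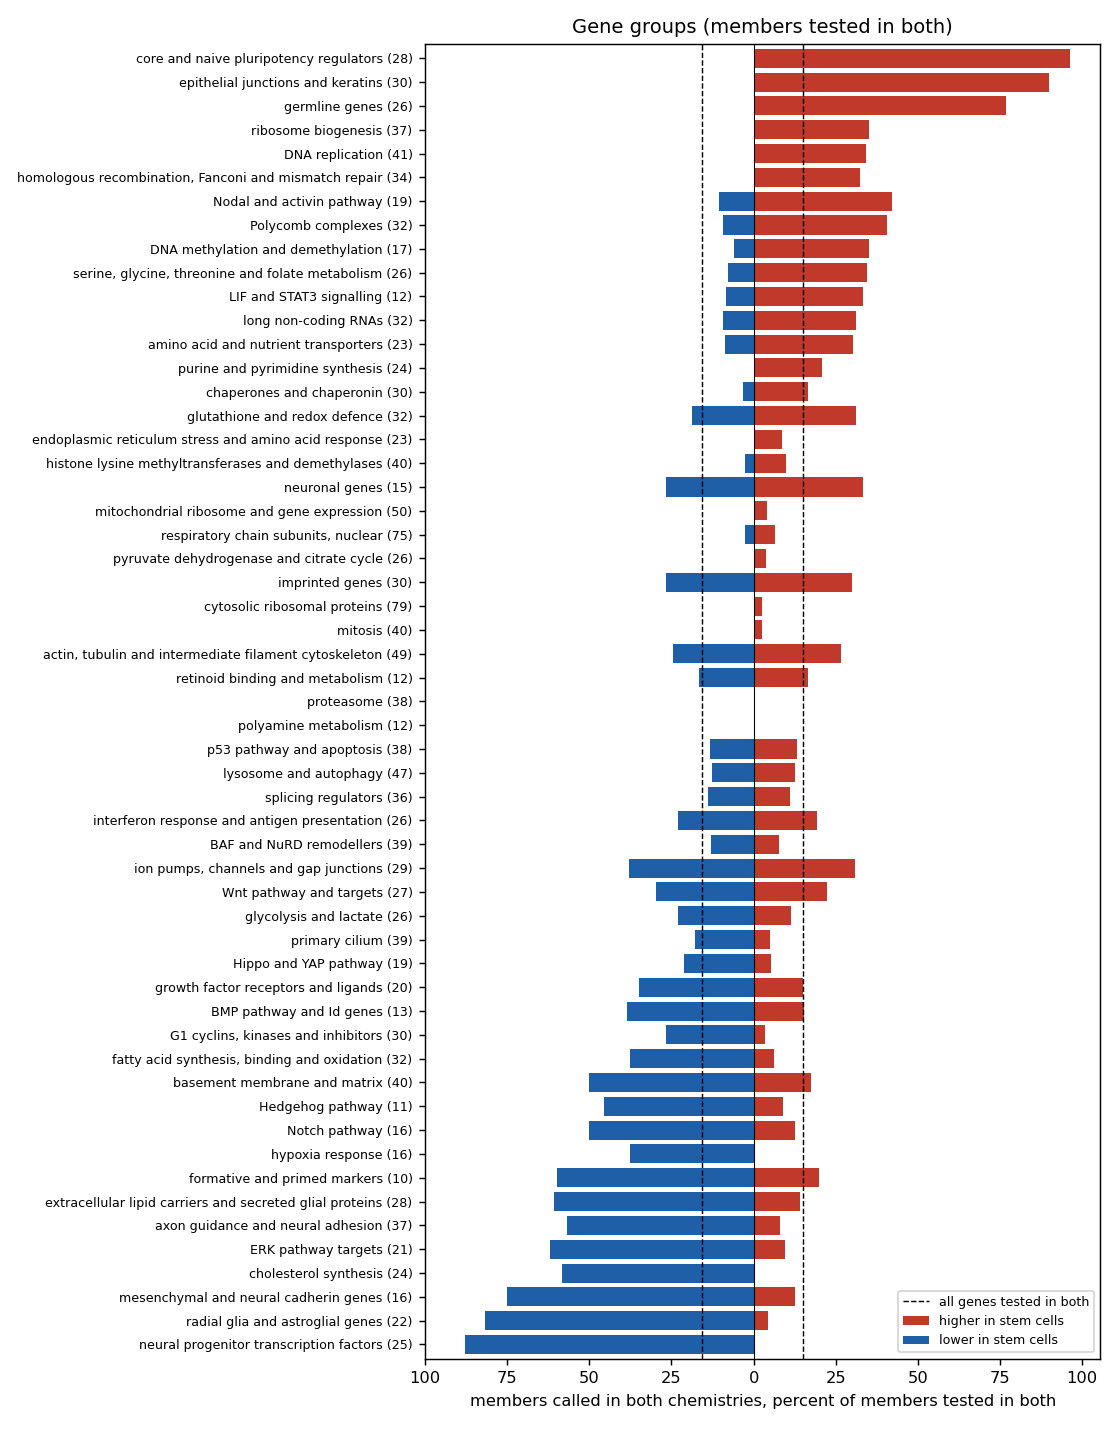
Percent of each group's members (number tested in both chemistries in brackets) that were called in both, higher in stem cells to the right and lower to the left, for groups with at least 10 tested members. Dashed lines mark all 14214 genes at 15.2% and 15.8%.

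Core and naive pluripotency regulators were higher almost throughout. All 28 listed genes were tested and 27 were called higher, with a median difference of 6.29 and 6.28. In all progenitor libraries 4 were at 0 in R10 and 9 in R9. With these set to the lowest fold that 3 reads over the arm allow the medians were 6.69 and 6.30. The 28 genes summed to 68.3 to 80.6 CPM in R10 progenitors and 13836 to 16068 CPM in R10 stem cells, and to 66.0 to 110.4 and 15239 to 17199 CPM in R9. Nanog (chr6:122707489-122714633, mm10), the homeodomain factor that gates naive self-renewal, was at 0, 1.75, 0.635 and 0.574 CPM in the R10 progenitors (OKMS, OKS and 2 wild type, an order kept below) and at 537 to 1105 CPM with a median of 908 CPM in the 7 stem cell libraries. In R9 it was at 1.35, 5.06, 0 and 0.968 CPM in progenitors and 878 and 689 CPM in stem cells (O4G, then R1). No library of one arm came near the other, and the lowest stem cell value was that of the unnumbered library. The promoter is shown because a sequence that OCT factors can bind, TTTGCAT, lies in it. The window (chr6:122707315-122707614, plus strand, RefSeq GRCm38.p6) runs from 250 bases before to 50 after the start, and the capitals mark the match, which begins at -151.
Nanog promoter: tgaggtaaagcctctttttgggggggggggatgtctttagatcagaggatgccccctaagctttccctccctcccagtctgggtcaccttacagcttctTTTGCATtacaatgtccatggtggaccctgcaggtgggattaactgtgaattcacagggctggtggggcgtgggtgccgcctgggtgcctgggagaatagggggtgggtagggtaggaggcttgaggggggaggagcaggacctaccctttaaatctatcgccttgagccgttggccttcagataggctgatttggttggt
On either strand TTTGCAT was present in 2 of 12 windows of this group and in 256 of 7534 windows of all tested genes (3.40%). A match describes these letters, and binding was not tested here.

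Differences inside the network varied widely. Sox2, a factor that both cell types use, differed least among the called members, at 36.8 ± 4.09 CPM (SD, n = 4) in R10 progenitors and 133 ± 34.7 CPM (SD, n = 7) in stem cells (1.78 and 1.26). Lin28a, which blocks let-7, was at 3.58 and 2.67, and Trim71, which silences mRNAs of differentiation, at 3.58 and 2.62. Naive factors were larger: Esrrb 6.18 and 5.93, Tfcp2l1 7.30 and 7.05 and Klf2 4.80 and 6.88. Gbx2, a LIF-responsive homeobox gene, was the member not called in both, at 2.31 and 0.42. Of 13 formative and primed markers 10 were tested, 2 called higher and 6 lower, and many of them also belong to neural cells. Otx2, a homeobox gene of the primed epiblast and forebrain, was higher (2.90 and 5.62), as was Dnmt3b (3.52 and 2.49). Pou3f1 (-5.51 and -4.97) and Sox11 (-6.32 and -5.93), both used in neural lineages, were lower. The count of 6 was 3 without the R1 stem cell library in R9.

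Neural progenitor transcription factors were lower in stem cells as a block. Of 30 listed genes 25 were tested, 22 called lower and 0 higher, with a median of -4.0 and -3.90 (-4.12 and -3.90 with genes at 0 set to the bound of 3 reads). Of the 25, 3 in R10 and 11 in R9 were set to that bound, having no read in 1 arm. Olig2 (chr16:91225457-91228677), a basic helix-loop-helix factor of progenitors and the oligodendrocyte lineage, was at 167, 139, 147 and 114 CPM in R10 progenitors and 238, 174, 179 and 237 CPM in R9. It had no read in any of the 9 stem cell libraries, and against 3 reads over the arm it was at least 1045-fold lower in R10 and at least 147-fold lower in R9. Nfia and Nfix, NFI factors that open the glial programme, were lower by similar amounts in both chemistries (-7.28 and -6.81, and -6.02 and -5.07). Sox9 (-6.14 and -5.19) and Pax6 (-3.96 and -3.45) were lower too. Hes1, the Notch effector, was not called (0.60 and 0.28). Sox1, a classic early neural factor, had no read in any progenitor library, so the label of neural progenitor rests here on the other factors.

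Radial glia and astroglial genes were lower in 18 of 22 tested and higher in 1, with a median of -4.31 and -4.0 (-4.42 and -3.82 with genes at 0 set to the bound). Of the 22, 2 in R10 and 8 in R9 were set to the bound. The listed genes summed to 8346 to 10434 CPM in R10 progenitors and 288 to 529.6 CPM in R10 stem cells. Fabp7 (chr10:57784881-57788450), the brain lipid-binding protein of radial glia, was at 3951, 4009, 4526 and 3485 CPM in R10 progenitors. It had no read in the 6 numbered R10 stem cell libraries or the 2 of R9, and 21.7 CPM in the unnumbered R1 library. Proteoglycans of the neural matrix, Ncan (-7.68 and -7.10) and Bcan (-7.25 and -6.54), and the phosphatase receptor Ptprz1 (-6.93 and -7.70) were lower, as was the secreted growth factor that binds it, Ptn (-9.50 and -10.38). Nes and Vim, intermediate filament genes often used to identify these cells, differed less than the genes just named (-5.37 and -3.66, and -2.75 and -3.38). In R10 Nes still lay beyond the group median of -4.31. The exception, Aldh1l1, an astrocyte marker that encodes a folate enzyme, was higher in stem cells (1.95 and 2.69).

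Markers of other cell types gave a mixed picture. Neuronal genes were called both ways, 5 higher and 4 lower of 15 tested. The tubulin Tubb3 (3.88 and 5.53), the tubulin-binding Stmn2 (6.98 and 7.16) and the neurofilament Nefl (5.25 and 4.76) were higher in stem cells, while Map2 (-7.47 and -7.77) and Gap43 (-5.73 and -7.25) were higher in progenitors. The count of 5 was 2 without either R9 stem cell library. Summed, the 19 detected neuronal genes reached 425 to 628 CPM in R10 stem cells and 470.0 to 734 CPM in R10 progenitors, and in R9 436 to 539 against 810 to 916 CPM, and Elavl3 had no read in any progenitor library. Mbp, a myelin gene with other transcripts outside myelin, was higher in stem cells (2.62 and 2.58) and the other called oligodendrocyte genes, Bcas1 (-3.49 and -3.74), Cspg4 and Cnp, were lower. The 8 detected genes of that lineage summed to 138 to 169.6 CPM in R10 progenitors and 25.7 to 42.6 CPM in R10 stem cells. Primitive endoderm genes summed to more in progenitors (709 to 1466 CPM in R10) than in stem cells (235 to 369.8 CPM), through Col4a1, Lamb1 and Sparc, which many cells make. Gata6 and Hnf4a, which mark that lineage, had no read in progenitors. Fibroblast genes summed to 157 to 295 CPM in R10 progenitors and 11.5 to 24.6 CPM in stem cells, and to 174 to 428 and 15.1 to 15.8 CPM in R9. Of 6 tested 3 were lower in stem cells, Fbln2 (-4.68 and -4.57), Col5a1 (-3.08 and -3.27) and Thy1 (-1.06 and -1.71), and 0 higher. The count of 3 was 6 of 12 tested with no filter on low values and 6 of 9 without wild-type progenitor library 2 of R10. Of the 13 detected fibroblast genes 1, Col1a2, had no read in progenitors, and the part of such cells in the differences was not tested. The 8 trophoblast genes detected summed to 35.8 to 70.5 CPM in R10 stem cells, with Tfap2c called higher (4.60 and 5.63) and Hand1 at 0. Genes of the rare state that resembles the embryo at its first cleavage, such as Zscan4c, were at 3.73 to 19.8 CPM in sum in R10 stem cells and at 0 in R10 progenitors. In R9 the sums were 0.947 and 0.931 CPM in stem cells and 0 to 1.35 CPM in progenitors, so the arms overlapped there, and none of these genes passed the filter in both chemistries.

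Most ERK pathway targets tested were lower in stem cells, whose medium held the MEK inhibitor and lacked EGF and FGF-2. Of 21 tested, 13 were called lower and 2 higher, with a median of -1.98 and -3.75. Dusp6 (chr10:99263231-99267489), the phosphatase that inactivates ERK and is induced by it, was at 388, 393, 389 and 351 CPM in R10 progenitors and 1.55 to 7.55 CPM with a median of 4.48 CPM in stem cells. In R9 it was at 202, 159, 144 and 348 CPM and at 3.79 and 1.86 CPM. The arms were far apart in both chemistries, with differences of -6.23 ± 0.28 in R10 (limma adjusted p = 3.24e-11) and -5.76 ± 0.40 in R9 (limma adjusted p = 1.22e-04), each ± SE. Spry4, a feedback inhibitor of the receptors (-5.99 and -6.59), the early response gene Ier3 (-5.21 and -4.94) and Phlda1 (-4.99 and -5.45) were lower, as was Myc (-4.85 and -6.22). Epha2 (3.25 and 3.70) and Epha4 (3.24 and 3.07), ephrin receptors, were higher. Receptors and ligands of growth factors were called higher in 3 and lower in 7 of 20. Egfr, the receptor for the EGF of the progenitor medium, was lower (-4.72 and -4.95), with Fgf1 (-5.89 and -6.59) and the neurotrophin receptor Ntrk2 (-2.99 and -3.08). Fgf4, the autocrine FGF of the early embryo, was higher (5.63 and 6.94), and the pair of a receptor and its ligand split, with Kit higher (3.55 and 3.71) and Kitl lower (-4.64 and -5.29). The count of 7 was 4 without the R1 stem cell library in R9.

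Feedback genes of LIF and STAT3 signalling were higher, and 7 of the 12 members tested were not called. Socs3, the inhibitor that STAT3 induces, was at 12.3, 12.3, 4.45 and 6.60 CPM in R10 progenitors and 53.8 to 145 CPM with a median of 101 CPM in stem cells (3.46 and 3.95). Its relative Socs2 (2.28 and 2.08) and the survival kinases Pim1 (3.43 and 4.95) and Pim3 (1.40 and 2.70) completed the 4 called higher of 12 tested, and the phosphatase Ptpn11 was the 1 lower (-1.26 and -1.32). With the unnumbered library as the sole R10 stem cell library 2 were called higher. Wnt pathway genes were called higher in 6 and lower in 8 of 27. Targets of beta-catenin and a Wnt-inactivating enzyme were higher: Sp5 (4.24 and 3.31), Cdx1 (4.11 and 4.32) and Notum (4.54 and 5.76). Sp5 had no read in any progenitor library and 12.0 to 26.1 CPM with a median of 17.9 CPM in R10 stem cells, at least 65.2-fold higher in R10 and at least 9.26-fold in R9. Ligands and their secretion factor were lower, Wnt7a (-4.11 and -3.68), Wnt7b (-4.50 and -3.57) and Wls (-4.15 and -4.73), as was the receptor Fzd1 (-4.31 and -4.46), while Fzd5 was higher (2.10 and 3.89). Axin2, a widely used beta-catenin target, was at 0.63 and 0.047 and was picked after its values were seen. The 8 lower calls were 5 without the O4G and 4 without the R1 stem cell library in R9.

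**Figure D3:**
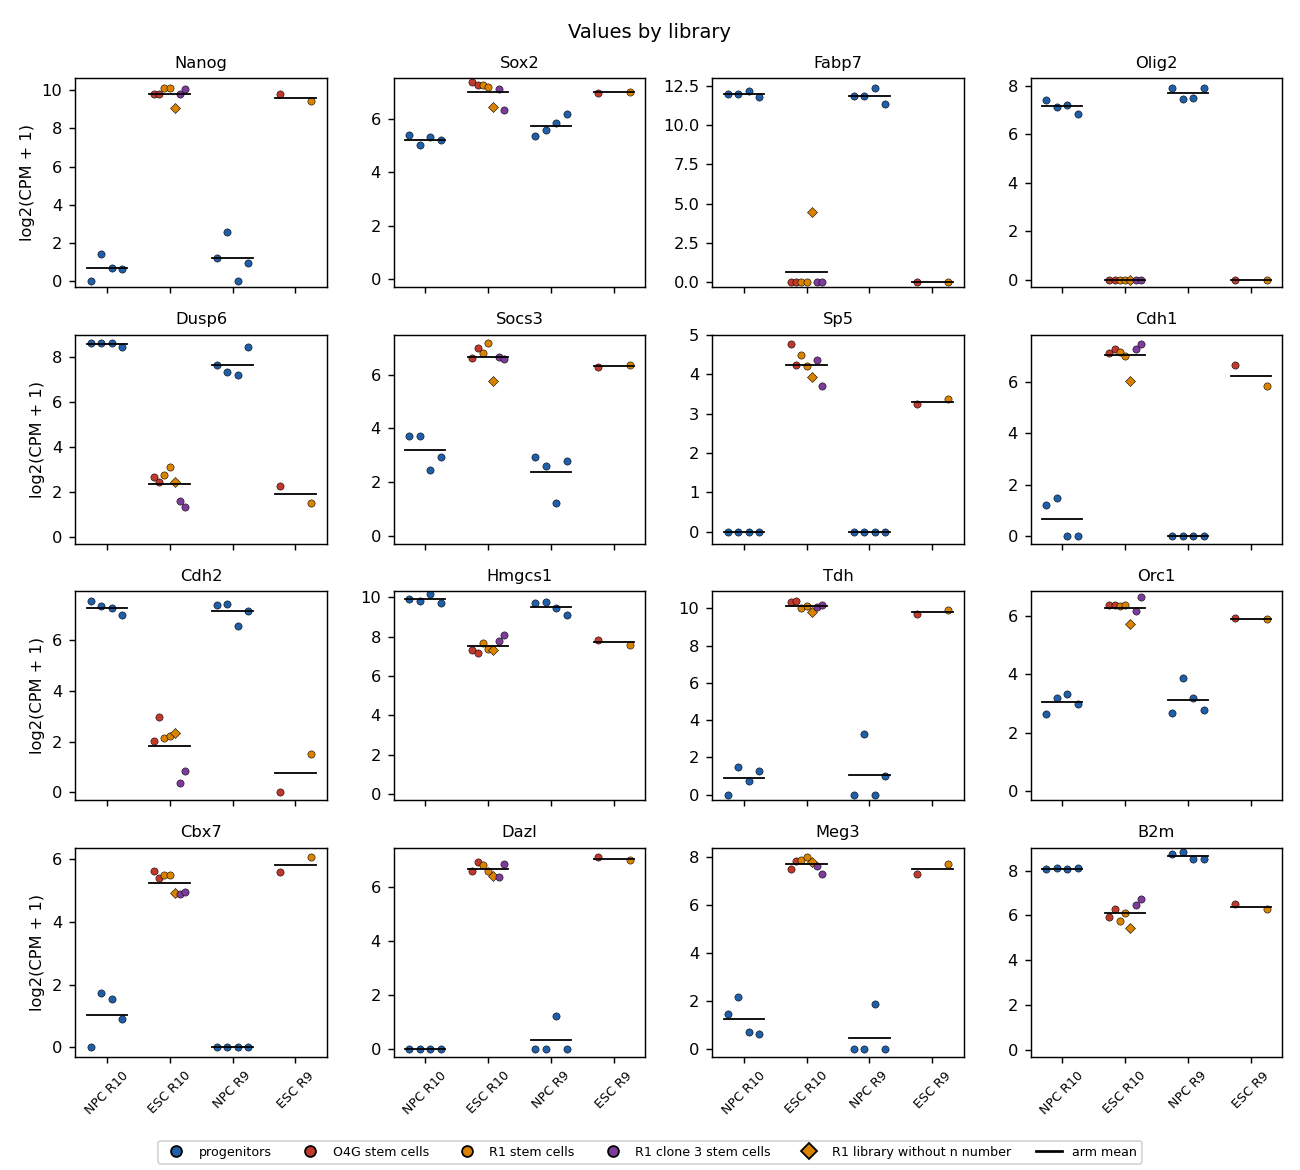
log2(CPM + 1) of 16 genes in each of the 17 libraries by chemistry and arm, with a line at the arm mean. The arms do not overlap for any gene shown, and the R1 library without an n number (diamond) has the highest stem cell value of Fabp7 and the lowest of Nanog, Cdh1 and B2m in R10.

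Nodal pathway genes were higher in 8 and lower in 2 of 19. The ligand Nodal (6.04 and 6.18), its co-receptor Tdgf1 (8.36 and 8.51), the cofactor Foxh1 (5.85 and 5.42) and the feedback gene Smad7 (3.78 and 3.67) were higher, and the TGF-beta ligand Tgfb2 (-3.16 and -2.91) and the receptor Tgfbr2 (-4.77 and -5.45) were the 2 lower. The count of 8 was 5 without either R9 stem cell library. BMP pathway genes were called higher in 2 and lower in 5 of 13, and the Id genes, inhibitors of basic helix-loop-helix factors, divided: Id1 (-1.57 and -1.78), Id2 (-3.86 and -5.75) and Id3 (-2.85 and -5.73) were lower and Id4 higher (2.06 and 3.22). Notch pathway genes were lower in 8 and higher in 2 of 16, with the ligand Dll1 (-3.18 and -2.85), the glycosyltransferase Lfng (-6.05 and -5.73) and the target Hey1 (-2.23 and -3.17) lower and the ligand Dll3 higher (1.85 and 1.56). The count of 8 was 4 and 2 without the O4G and R1 stem cell libraries in R9, and 5 without the OKS or the first wild-type progenitor library in R9, with median scaling, with wild-type progenitors alone, by edgeR and by DESeq2. Hedgehog co-receptors Boc (-2.13 and -3.58), Cdon (-4.49 and -4.35) and Gas1 (-2.99 and -3.96) and the transducer Smo (-3.0 and -2.05) were lower, 5 of 11 with Disp1, and 2 and 3 without the O4G and R1 stem cell libraries in R9 (3 with the unnumbered library alone in R10). Hippo pathway genes were lower in 4 and higher in 1 of 19, with the scaffolds Amot (-3.25 and -4.15) and Amotl1 (-3.61 and -3.90) lower and Tead4 higher (1.90 and 3.70). Of 12 genes of retinoid binding and metabolism 2 were higher, the binding proteins Crabp1 (3.17 and 4.64) and Crabp2 (1.5 and 1.73), and 2 were lower, among them the receptor Rarb (-3.97 and -4.90). Each direction held 16.7% of these 12, near the shares of all tested genes.

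In metabolism cholesterol synthesis had the largest share of members called one way. It was lower in stem cells in 14 of 24 genes and higher in 0, with a median of -1.73 and -1.15. By unadjusted p under 0.05 in both chemistries 20 were lower and 0 higher, and edgeR and DESeq2 each called 13 lower and 0 higher. Hmgcs1 (chr13:119690379-119708260), the synthase at the entry of the mevalonate pathway, was at 952, 911, 1137 and 835 CPM in R10 progenitors and 144 to 272 CPM with a median of 163 CPM in stem cells. In R9 it was at 835, 858, 705 and 544 CPM and at 229 and 191 CPM. The arms did not overlap, and the differences were -2.37 ± 0.16 in R10 (limma adjusted p = 3.12e-09) and -1.79 ± 0.21 in R9 (limma adjusted p = 8.19e-04), each ± SE. Insig1, which retains the sterol sensor in the endoplasmic reticulum (-3.15 and -1.5), and the late enzymes Tm7sf2 (-2.66 and -2.13) and Sc5d (-1.71 and -1.67) were lower. The count of 14 was 5 without the R1 stem cell library in R9 and 9 with wild-type progenitors alone. The Hmgcs1 promoter is shown because CCAAT, the core of the site of the factor NFY, lies in it 4 times, marked in capitals on either strand and beginning at -237, -176, -45 and 11 (chr13:119690101-119690400, plus strand, same source).
Hmgcs1 promoter: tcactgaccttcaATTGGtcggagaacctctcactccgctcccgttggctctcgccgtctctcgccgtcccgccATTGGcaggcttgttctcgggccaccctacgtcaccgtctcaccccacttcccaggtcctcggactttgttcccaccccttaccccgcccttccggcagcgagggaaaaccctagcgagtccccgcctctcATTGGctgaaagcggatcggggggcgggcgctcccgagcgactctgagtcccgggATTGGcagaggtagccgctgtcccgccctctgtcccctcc
CCAAT was in 13 of 15 windows of this group and in 40.7% of all windows. It was also in 18 of 23 mitosis windows, a group with 1 of 40 members called.

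Fatty acid genes were lower in 12 and higher in 2 of 32. The lipid chaperones divided, with Fabp3 higher (5.08 and 5.66) and Fabp5 (-4.25 and -4.02) and Fabp7 (-11.31 and -11.84) lower. Acsbg1, a glial acyl-CoA synthetase (-6.74 and -7.78), and the transporter Slc27a1 (-3.70 and -3.40) were lower, and Acadm, the medium-chain dehydrogenase, was higher (1.82 and 1.77). Serine, glycine, threonine and folate genes were higher in 9 and lower in 2 of 26. Tdh, which breaks down threonine in mouse stem cells, led them (9.26 and 8.75). The folate receptor Folr1 (6.48 and 5.41), Aldh1l1 (1.95 and 2.69) and the cytosolic Mthfd1 (1.42 and 1.90) were higher, while Phgdh, the first enzyme of serine synthesis (-2.23 and -1.29), and Mthfd2l (-2.19 and -5.25) were lower. The count of 9 was 5 with wild-type progenitors alone or without the O4G stem cell library in R9. Purine and pyrimidine synthesis had 5 higher and 0 lower of 24 (10 and 1 by unadjusted p), among them Gart (1.61 and 1.83), Prps1 (1.38 and 1.43) and Paics (1.20 and 1.06), and 3 without the O4G stem cell library in R9 or with the unnumbered library alone in R10.

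Glycolytic genes did not move together. Of 26 tested, 3 were higher and 6 lower, and 3 lower with median scaling. Slc2a3, the high-affinity glucose transporter (4.99 and 3.54), Hk2 (1.29 and 1.86) and the platelet-type phosphofructokinase Pfkp (4.48 and 5.24) were higher. The muscle-type Pfkm (-1.43 and -1.24), the brain aldolase Aldoc (-5.36 and -4.35) and the regulator Pfkfb3 (-3.63 and -3.23) were lower. Genes of the hypoxia response were lower in 6 and higher in 0 of 16, with a median of -1.36 and -1.40, 11 lower and 2 higher by unadjusted p, and 6 lower and 1 higher by edgeR and by DESeq2. Bnip3, a mitophagy receptor that HIF induces, was at 76.4, 185, 182 and 153 CPM in R10 progenitors and 4.26 to 50.4 CPM with a median of 20.0 CPM in stem cells (-3.06 and -2.11). The oxygen sensor Egln1 (-3.66 and -1.69), the collagen hydroxylase P4ha1 (-2.08 and -1.89) and the oxidase Ero1l (-2.42 and -2.09) were lower. The Bnip3 promoter carries the HIF core ACGTG on both strands of 1 palindrome, in capitals, with the first match at -108 (chr7:138909457-138909756, minus strand, same source), and is shown for that element.
Bnip3 promoter: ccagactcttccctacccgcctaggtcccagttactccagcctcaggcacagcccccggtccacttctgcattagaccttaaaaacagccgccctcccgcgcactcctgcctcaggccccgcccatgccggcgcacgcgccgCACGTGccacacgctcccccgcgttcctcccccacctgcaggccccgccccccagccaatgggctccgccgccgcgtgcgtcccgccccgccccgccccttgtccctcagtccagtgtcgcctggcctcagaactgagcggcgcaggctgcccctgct
ACGTG was in 10 of 13 windows of the hypoxia group and 26.8% of all windows.

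Few genes of the energy and protein machinery were called. Of 75 nuclear respiratory chain genes 5 were higher and 2 lower, with medians of -0.095 and -0.058. Among the higher were tissue forms and an accessory protein, Chchd10, Cox7a1 (2.86 and 3.16) and Cox6b2 (1.43 and 1.70), the lower were Ndufv3 (-1.76 and -1.27) and Ndufc2 (-1.29 and -1.09) of complex I, and the count of 5 was 2 without either R9 stem cell library. The citrate cycle had 1 gene of 26 called higher and 0 lower (3 and 6 by unadjusted p), the malic enzyme Me2 (1.02 and 1.20). No gene of 12 in polyamine metabolism was called in both by limma, with 2 higher by unadjusted p and 1 by edgeR and by DESeq2. The proteasome likewise had 0 of 38, with 14 higher and 1 lower by unadjusted p and 1 higher by edgeR and by DESeq2. Of 79 cytosolic ribosomal protein genes 2 were higher, Rpl9 (1.5 and 1.28), whose reads can be shared with its copies, and Rpl39l, a form of testis and stem cells (7.15 and 7.19), with 4 by edgeR and by DESeq2 and 8 with median scaling. Among chaperones, the small heat shock genes Hspb1 (5.73 and 6.33) and Hspb8 (3.44 and 3.12) and Hsp90aa1 (2.0 and 2.35) were higher, 5 of 30, with Hspa4l lower (-3.40 and -3.55). In the amino acid response Trib3 (3.26 and 4.30) and Asns (3.25 and 3.09) were the 2 of 23 called in both, both higher, and 3 were lower by unadjusted p.

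Redox genes were higher in 10 and lower in 6 of 32. Secreted Gpx3 (5.08 and 4.77), Gsta4 (5.23 and 5.64), Gstp2 (5.39 and 5.29), which has a close copy, and the metallothionein Mt2 (4.28 and 4.59) were higher. Microsomal Mgst1 (-7.36 and -8.43), Gstm5 (-3.61 and -2.87) and Gpx8 of the endoplasmic reticulum (-2.34 and -3.84) were lower. Nutrient transporters were higher in 7 and lower in 2 of 23, and 4 higher with the unnumbered library alone in R10. The cationic amino acid carrier Slc7a3 (3.91 and 4.87), the neutral amino acid carriers Slc38a4 (5.95 and 4.48) and Slc1a5 (2.43 and 4.17) were higher, and the glial carriers Slc1a3 (-6.12 and -6.70) and Slc38a3 (-4.68 and -4.71) were lower.

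Of 41 genes of DNA replication 14 were higher and 0 lower, with a median of 1.02 in each chemistry, and 30 were higher and 0 lower by unadjusted p. Orc1, the largest subunit of the origin recognition complex, was at 5.27, 8.18, 8.89 and 6.89 CPM in R10 progenitors and 51.9 to 98.0 CPM with a median of 80.6 CPM in stem cells (3.24 and 2.78), with no overlap. Cdt1, which loads the helicase (2.0 and 2.05), Mcm3 of that helicase (1.38 and 1.73) and the clamp loader subunit Rfc5 (1.71 and 1.56) were higher. With median scaling the count was 23. Of 40 mitosis genes 1 was higher, the kinetochore gene Spc24 (1.04 and 1.56), and 0 lower, with a median of 0.45 and 0.22, and 13 were higher and 0 lower by unadjusted p. The Cdt1 promoter is shown for a match to the E2F core TTCCCGC, which begins 19 bases after the start on the opposite strand (chr8:122567765-122568064, plus strand, same source).
Cdt1 promoter: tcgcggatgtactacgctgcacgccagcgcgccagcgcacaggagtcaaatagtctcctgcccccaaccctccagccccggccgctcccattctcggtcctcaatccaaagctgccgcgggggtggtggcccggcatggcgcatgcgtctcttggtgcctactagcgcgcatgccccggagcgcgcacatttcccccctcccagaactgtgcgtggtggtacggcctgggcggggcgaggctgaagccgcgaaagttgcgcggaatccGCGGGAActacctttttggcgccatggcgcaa
TTCCCGC was in 14 of 29 replication windows, 10 of 19 windows of repair genes and 9 of 19 of germline genes, against 10.0% of all windows.

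Recombination, Fanconi and mismatch repair genes were higher in 11 and lower in 0 of 34, with a median of 0.81 and 1.27. Among them were the mismatch repair gene Msh6 (2.54 and 3.04), the recombination gene Rad54b (2.08 and 2.50) and Xrcc5 of end joining (1.86 and 2.59). Leaving out either R9 stem cell library, or taking the unnumbered library alone in R10, gave 6, and O4G stem cells alone gave 5. Ribosome biogenesis was higher in 13 and lower in 0 of 37 (23 and 0 by unadjusted p), with Npm1 (1.53 and 1.40), Dkc1 (1.5 and 1.76) and Mybbp1a (1.49 and 1.59), and 8 without the O4G stem cell library in R9 or with O4G stem cells alone. Regulators of G1 were lower in 8 and higher in 1 of 30. Ccnd2 (-9.28 and -8.39) and the inhibitors Cdkn1c (-3.0 and -3.32) and Cdkn2c (-3.42 and -3.20) were lower together with the Myc antagonist Mxd4 (-5.01 and -4.70), while Mycn was the 1 higher (3.86 and 4.15).

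Among chromatin regulators, Polycomb genes were higher in 13 and lower in 3 of 32. Cbx7, the chromobox protein of canonical PRC1 in stem cells, was at 0, 2.34, 1.91 and 0.861 CPM in R10 progenitors, 0 in all R9 progenitors and 29.0 to 48.5 CPM with a median of 41.2 CPM in R10 stem cells (4.22 and 5.83). Mtf2, which guides PRC2 to CpG islands (3.97 and 3.32), Phc1 (2.85 and 2.30) and Pcgf2 (3.26 and 1.92) were higher, and Phc2 (-3.08 and -2.55), Yaf2 (-2.99 and -3.45) and Bmi1, which neural stem cells need (-1.26 and -2.74), were lower. The count of 13 was 6 without either R9 stem cell library. In the remodellers 3 were higher and 5 lower of 39, with the ATPase Smarca2 (-4.53 and -4.24), Smarcc2 (-1.30 and -1.94) and Dpf3 (-6.75 and -6.35) lower. Those counts were 7.69% and 12.8%, below the shares of all tested genes. The count of 5 was 3 with the unnumbered library alone in R10. Genes of DNA methylation were higher in 6 and lower in 1 of 17. Both a de novo enzyme with its cofactor, Dnmt3b (3.52 and 2.49) and Dnmt3l (3.47 and 2.13), and the demethylating Tet1 (2.02 and 2.14) were higher, and the count was 3 without either R9 stem cell library. Of 40 genes of histone methylation 4 were higher, among them the COMPASS subunits Ash2l (2.21 and 2.21) and Dpy30 (1.77 and 2.08), and 1 lower, Suv39h1 (-1.88 and -2.77). At 10.0% and 2.5%, both counts were below the shares of all tested genes. The 40 hold lysine enzymes, arginine methyltransferases, readers and complex subunits. With median scaling or edgeR 8 were higher, and 7 by DESeq2.

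Germline genes were higher in stem cells. Of 32 listed 26 were tested, 20 called higher and 0 lower, with a median of 3.40 and 3.71, or 4.38 and 3.93 with genes at 0 set to the bound of 3 reads. Of the 26, 12 in R10 and 13 in R9 were set to that bound, having no read in 1 arm. By unadjusted p 21 were higher and 1 lower, and edgeR called 20 and DESeq2 17 higher. Dazl (chr17:50279395-50293636), an RNA-binding protein of germ cells, had 0, 0, 0 and 0 CPM in R10 progenitors, 0, 0, 1.34 and 0 CPM in R9 progenitors and 82.4 to 123 CPM with a median of 96.1 CPM in R10 stem cells, at least 361-fold higher in R10. The recombination gene Hsf2bp (6.74 and 7.36), the germ cell tubulin Tuba3a (7.57 and 8.22), which has a close copy, and Trap1a were among the largest. The count of 20 was 13 with a minimum of 5 CPM. Hormad1, a meiotic axis gene (6.05 and 5.60, picked after its values were seen), is shown for its E-boxes: CACGTG begins at -57 and -20 (chr3:95559427-95559726, plus strand, same source).
Hormad1 promoter: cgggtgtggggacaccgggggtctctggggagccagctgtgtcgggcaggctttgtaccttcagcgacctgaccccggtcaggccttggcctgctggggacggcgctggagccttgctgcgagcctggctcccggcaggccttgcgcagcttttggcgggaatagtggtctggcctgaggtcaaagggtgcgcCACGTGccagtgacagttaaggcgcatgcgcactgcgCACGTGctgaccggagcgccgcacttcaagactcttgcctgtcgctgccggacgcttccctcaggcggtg
CACGTG was in 6 of 19 germline windows and 10.8% of all windows. Over all windows the median number of CpG was 22, with 16 for genes called higher and 21 for genes called lower.

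Imprinted genes were called in both directions, 9 higher and 8 lower of 30. The 3 maternally expressed RNAs of the Dlk1-Dio3 region listed were all higher. Meg3 (chr12:109541001-109571726) was at 1.76, 3.51, 0.635 and 0.574 CPM in R10 progenitors and 153 to 251 CPM with a median of 217 CPM in R10 stem cells (6.44 and 7.04), with Rian (7.08 and 5.78) and Mirg (3.16 and 4.87) beside it. Nnat (-7.03 and -7.22), Mest (-4.40 and -5.09), Gnas (-2.91 and -3.11) and Cdkn1c were lower. Among other lncRNA genes, Lncenc1 (7.01 and 6.70), Platr3 (6.44 and 5.84) and Platr10 (6.49 and 5.96), known from stem cells, were higher, and Pantr1, which lies near Pou3f3 (-8.58 and -8.94), was lower. Of 36 splicing regulators 4 were higher and 5 lower, or 11.1% and 13.9%, below the shares of all tested genes. Epithelial Esrp2 (2.69 and 2.94) and Elavl2 (3.72 and 3.86) were higher and Nova1 (-3.30 and -2.60), Celf2 (-3.34 and -4.87), Mbnl1 (-2.51 and -3.28) and Rbm24 (-3.38 and -3.47) lower.

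Stem cells expressed an epithelial set and progenitors a mesenchymal and neural one. Epithelial junction and keratin genes were higher in 27 and lower in 0 of 30 tested, with a median of 2.98 and 3.03, or 3.14 and 3.16 with genes at 0 set to the bound. Of the 30, 6 in R10 and 16 in R9 were set to the bound. By unadjusted p 28 were higher and 1 lower, and edgeR called 27 and DESeq2 23 higher. Cdh1 (chr8:106603351-106670246), E-cadherin, was at 1.32, 1.75, 0 and 0 CPM in R10 progenitors, 0 in all R9 progenitors, 63.9 to 174 CPM with a median of 142 CPM in R10 stem cells and 98.5 and 55.8 CPM in R9 stem cells. No libraries overlapped, and in R9 it was at least 80.2-fold higher. Epcam (5.64 and 5.89), Cldn4 (5.87 and 5.55) and the actin nucleator Cobl (7.10 and 6.42) were higher. Mesenchymal and neural cadherin genes were lower in 12 and higher in 2 of 16, with Cdh2 (-5.44 and -6.36), Cdh4 (-6.0 and -4.91) and Zeb1 (-4.0 and -4.11) lower. The 2 higher were fibronectin, Fn1 (2.45 and 2.67), and S100a6 (2.43 and 3.10).

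Matrix genes were lower in 20 and higher in 7 of 40, and 13 lower with the unnumbered library alone in R10. Laminin and collagen chains split, with Lama1 (2.80 and 4.07) and the linker Nid1 (3.17 and 2.28) higher and Col4a1 (-3.36 and -5.26) and Lamb1 (-2.75 and -3.93) lower. The higher count was 4 without the R1 stem cell library in R9. Axon guidance and neural adhesion genes were lower in 21 and higher in 3 of 37 (1 higher without either R9 stem cell library), among the lower ones Nrp1 (-6.32 and -6.11), Sema6d (-5.30 and -5.96), Sema3a (-5.27 and -5.04) and Astn1 (-5.42 and -5.72). Secreted glial proteins were lower in 17 of 28, with Igfbp4 (-8.53 and -8.20), and higher in 4. Those 4 included the lipid carriers Apoe (4.73 and 4.87), Apoc1 (7.0 and 7.14) and Apod (4.04 and 3.72), although Apoe and Apod are also known from glia, and the growth factor Mdk (4.25 and 4.71), and only 1 was called without either R9 stem cell library. Cytoskeletal genes went both ways, 13 higher and 12 lower of 49, with Tuba4a (6.43 and 5.95) and Krt8 (4.64 and 3.05) higher and Dpysl3 (-5.07 and -6.63), Tmsb4x (-4.32 and -4.90) and Dbn1 (-4.49 and -4.11) lower. The 13 were 7 and 6 without the O4G and R1 stem cell libraries in R9. Channels and gap junctions were higher in 9 and lower in 11 of 29, with the connexin Gjb5 (5.85 and 5.12) higher and Gria3 (-5.33 and -5.61), Ttyh3 (-5.12 and -5.65) and Slc4a4 (-4.66 and -4.48) lower. Cilium genes were mostly not called, 2 higher and 7 lower of 39, and 4 lower by DESeq2 or with O4G stem cells alone, with the regulators Rfx2 higher (3.28 and 2.89) and Rfx4 lower (-3.98 and -5.25).

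Genes of the interferon response and antigen presentation were called both ways, 5 higher and 6 lower of 26. B2m, the light chain of MHC class I, was at 269, 273, 267 and 273 CPM in R10 progenitors and 42.9 to 105 CPM with a median of 66.9 CPM in stem cells (-1.99 and -2.27). The interferon-induced Ifi27 (-3.92 and -3.93), the peptide transporter gene Tap2 (-2.70 and -3.32) and the interferon gamma receptor Ifngr1 (-2.54 and -4.04) were lower. Ifitm1 (6.66 and 6.15), Ifitm3 (3.33 and 2.80) and Oas1a (6.18 and 6.11), all from families of similar genes, were higher, as was the interferon-induced Bst2 (2.29 and 1.57). The count of 5 was 2 with the unnumbered library alone in R10 and 3 with O4G stem cells alone. Genes of the p53 pathway were called 5 each way of 38, with Trp53 itself higher (1.85 and 1.44), Gadd45b higher (3.80 and 4.98) and Gadd45a lower (-2.20 and -1.52). Each direction held 13.2% of the group, below the shares of all tested genes. Lower calls fell to 2 without the R1 stem cell library in R9 and to 3 with the unnumbered library alone in R10. Lysosome genes were also called equally each way, 6 and 6 of 47, or 12.8% each, again below the shares of all tested genes. Among them Ctsc (4.98 and 5.15) and the master regulator Tfeb (3.42 and 3.61) were higher and Lipa (-2.53 and -2.59) lower.

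Some related genes took opposite directions. Of 84 pairs of paralogues or counterparts 76 had both genes tested in both chemistries, 14 were called in opposite directions in both, and 13 in the same direction, while in most pairs at least 1 gene was not called. The lipid chaperones Fabp3 and Fabp7 were the widest apart, followed by the POU factors Pou5f1 (8.67 and 9.17) and Pou3f2 (-4.12 and -3.61) and the cadherins Cdh1 and Cdh2. Mycn was higher and Myc lower, Hmga1 higher (3.63 and 3.23) and Hmga2 lower (-3.0 and -3.46), Sall4 higher (7.0 and 5.50) and Sall3 lower (-3.21 and -3.79), and the ligands Gdf3 higher (7.67 and 7.26) and Gdf11 lower (-3.60 and -4.39). Of the sodium pump subunits Atp1b1 was higher (3.46 and 4.88) and Atp1b2 lower (-1.40 and -1.32). Pairs were listed with earlier results of these data known, so the count of 14 describes the list.

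**Figure D4:**
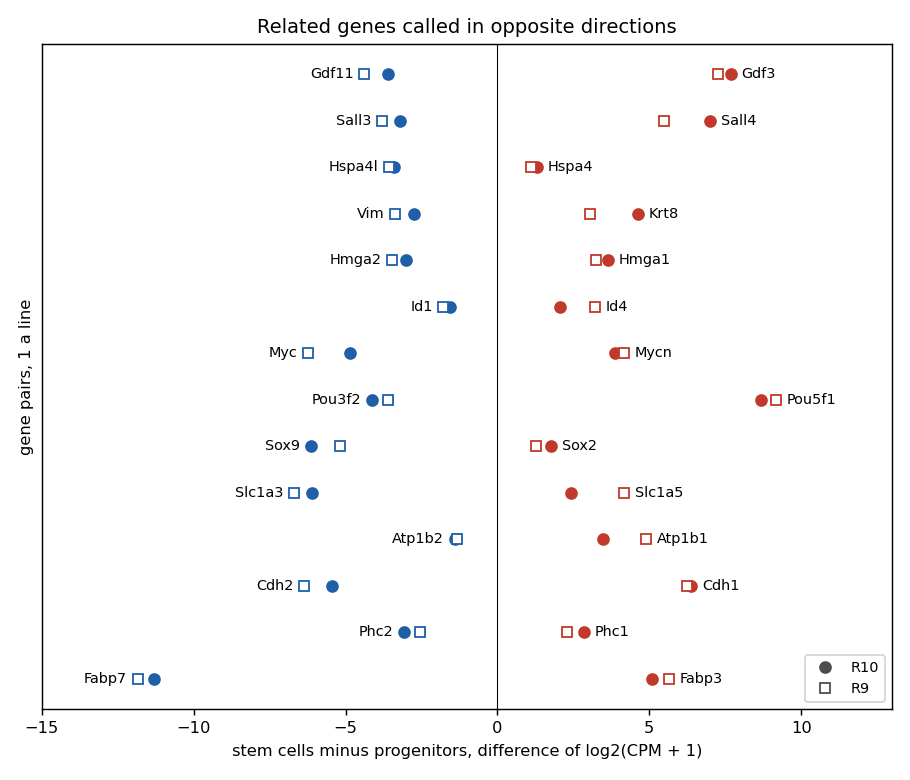
Differences of mean log2(CPM + 1) between stem cells and progenitors for the 14 pairs called in opposite directions, with R10 as filled circles and R9 as open squares. The higher gene of each pair is red and to the right, the lower one blue and to the left.

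Transcript use was compared through each transcript's share of the TPM of its gene, in genes of at least 5 TPM in every library. In R10 1308 of 4796 genes had a transcript that changed by at least 20 percentage points at an adjusted p under 0.05 in limma (27.3%), and in R9 128 of 5023 had one (2.55%). In both chemistries 47 transcripts in 42 of 4014 genes changed the same way (1.05%), and 16 of those 42 genes were also called for their level (38.1%), against 15.3% of the 4014. Most of the 47 had no TPM in any progenitor library, or none in any stem cell library, in both chemistries. Those transcripts passed the filter on shares through the other arm alone. Their direction, and its agreement between chemistries, was thus fixed beforehand. The count of 47 rested on the R9 libraries. It was 0 without the OKMS progenitor library of R9, and 0 without either wild-type one. It was 5 without the OKS library, 89 without the O4G stem cell library and 78 without the R1 one. Of the 47, 29 had splice sites outside the annotation, 9 were full-splice matches of annotated transcripts, 6 incomplete ones and 3 new combinations of known sites.

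Among the 10 transcripts with the largest change were 2 of Myl6, the essential light chain of non-muscle myosin (chr10), which changed in opposite directions. An annotated form of 7 exons took 62.2% to 80.5% of the gene in R10 progenitors and 7.51% to 16.7% in R10 stem cells, and 77.3% to 88.8% and 12.8% to 13.5% in R9. Its counterpart was a transcript of 7 exons outside the annotation, whose span (chr10:128490869-128509817, minus strand) extends upstream of the annotated form, with 13.6% to 29.4% in R10 progenitors and 70.9% to 84.5% in stem cells. The gene held 945 to 1413 TPM in R10 progenitors and 449 to 933 TPM in R10 stem cells, so these shares rest on an abundant gene. For this transcript the differences were 60.4 ± 3.98 percentage points in R10 (limma adjusted p = 5.43e-07) and 66.6 ± 6.67 in R9 (limma adjusted p = 0.019), each ± SE. Pym1, a factor that removes exon junction complexes from mRNA (chr10:128747856-128766562), used an annotated transcript of 3 exons at 3.03% to 7.42% in R10 progenitors and 63.3% to 70.7% in R10 stem cells. Prrc1 (chr18) used its annotated 9-exon transcript at 70.1% to 86.8% in R10 progenitors and 5.11% to 12.6% in stem cells, while the gene held 33.5 to 45.8 TPM and 193 to 551 TPM. Chchd4, a mitochondrial import factor, had a transcript outside the annotation at 0 in all 8 progenitor libraries and at 58.0% to 71.1% in R10 stem cells. Transcripts of 2 exons without a predicted reading frame had no TPM in the 8 progenitor libraries in Prpf39 and Cpne3, and 45.3% to 75.8% and 54.5% to 73.8% of the gene in R10 stem cells. Shares of Zfp229, a zinc finger gene with close relatives, are uncertain because reads could be split between copies.

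**Figure D5:**
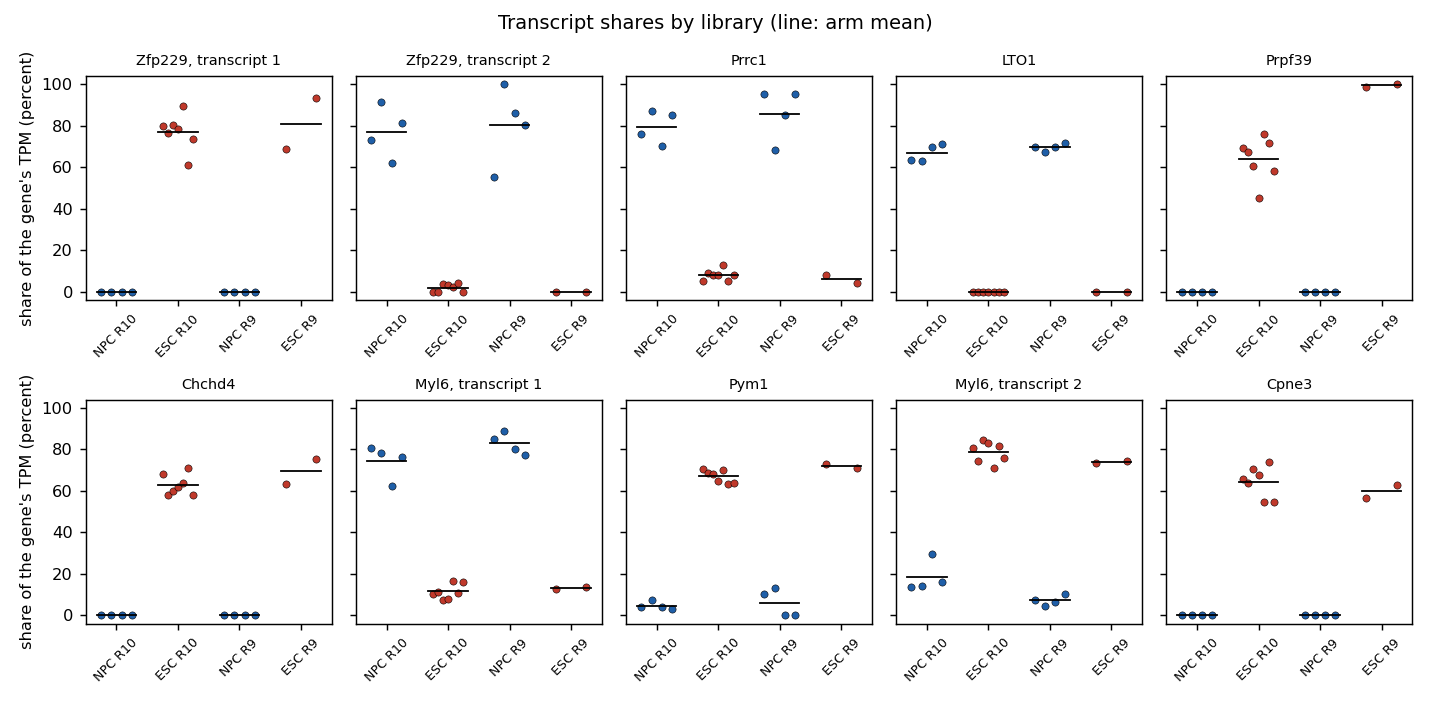
Share of the TPM of its gene (percent) for the 10 transcripts with the largest change in both chemistries, by library, in progenitors (blue) and stem cells (red), with a line at the arm mean. The shares of the arms do not overlap in any panel.

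The 9 genes with opposite calls were few beside 4406, and 8 of them changed sign with the unnumbered library alone in R10. H1f5, a linker histone gene, was at 3.29 and -1.38 and mt-Rnr2, the mitochondrial large ribosomal RNA, at 2.40 and -1.40. H1f5 belongs to a family of similar genes, so its reads may be shared. Macroh2a1 (-1.54 and 1.12) and Eif3b (-1.26 and 1.02) went the other way. In 1 fit over all 17 libraries 447 of 14214 genes differed between chemistries in their stem cell difference (3.14%), a count that ranged from 53 with wild-type progenitors alone to 1375 without the unnumbered library. The list of chemistry-dependent genes thus depended on the libraries used, and 4283 of the 4406 shared calls were outside it.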

How the data were processed

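Long-read RNA sequencing gave a deposited gene table in CPM and a transcript table in TPM. The authors aligned reads to mm10 with minimap2 2.24-r1122, per the submitters' processing notes. The deposited gene and transcript values are named after IsoQuant, without a version or settings. Whether strand was used is not given in the sources used here, so overlapping and antisense loci are uncertain. The deposited CPM values were whole multiples of 1 read within 0.02 reads for 100% of 275692 values above 0, so reads could be recovered. Of the gene table's columns 13 matched no sample and were not used, and 20 gene names had been turned into numbers.

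Groups came from the labels. Within R9 and within R10, limma 3.58.1 (R 4.3.3, trended eBayes) was fitted to log2(CPM + 1) of genes with at least 1 CPM in 4 libraries (R10) or 2 (R9), with Benjamini-Hochberg adjustment over all tested genes. A fit over 17 libraries gave the interaction with chemistry. Transcript shares (at least 5% in a group) were tested with limma and combined per gene by Simes' method. Alternatives were count models on recovered reads (edgeR 4.0.16, DESeq2 1.42.0), other pseudocounts, filters and scalings, subsets by line and genotype, and each library left out. On simulated data with 4-fold changes in 200 genes, the R10 fit over 14860 genes recovered 100% of the 200 and the R9 fit over 14519 genes 89.5%. The changed genes were drawn from the better expressed ones, at a fixed dispersion, and all others were left unchanged. Recovery of genes near the filter, or with as many changes as here, was therefore not measured.

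Members and lists were chosen with earlier results of these data known. Of 1767 listed symbols 1704 were in the files. The text names, per list, up to 4 members each way with the largest smaller difference of both chemistries, the 15 protein-coding and 5 lncRNA genes each way by that measure, opposite calls, opposite pairs, cell type markers, members on which a count turns, the 10 transcripts with the largest change and up to 6 genes each way by interaction. A few genes that this rule takes, and 1 listed pair, are not reported here. Bounds use 3 reads over the arm and cover counting error alone. Promoter windows of 300 bases are from a RefSeq GRCm38.p6 table, for 7534 genes (53.0%) whose most abundant transcript began within 500 bases of the window's start site. Motifs were searched on both strands, the promoters shown were picked after the matches were seen, and CACGTG contains ACGTG.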

Additional observations from a re-analysis of the deposited data

Results flagged for a closer look

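Of 180 sets of values examined for a sample that stands apart from its group, 20 held one, where chance gives about 1 in 20 sets. The unnumbered R1 stem cell library in R10 accounted for 10 of them. Its mitochondrial share was 0.124% and its share of incomplete splice matches 10.5%. It was the lowest of the 7 for Nanog (537 CPM), Cdh1 (63.9 CPM) and Npm1 (2907 CPM). It was the highest for genes of progenitors, Fabp7 (21.7 CPM), Ptn (5.23 CPM), Ccnd2 (9.71 CPM), Nnat (1.87 CPM) and Pantr1 (1.87 CPM). Among R10 progenitors, 1 wild-type library was lowest for Ptn (996 CPM) and Dusp6 (351 CPM), and the other wild-type library was the highest for Fgf4 at 0.318 CPM. Among R9 progenitors the values that stood apart were mostly 1 or a few reads: Fgf4 at 1.35 CPM in OKMS, Nodal at 0.968 CPM in the second wild-type library, Tdh at 8.43 CPM in OKS, and, in the first wild-type library, Rpl39l and Dazl at 1.34 CPM, Meg3 at 2.67 CPM and Apoe at 70.9 CPM.

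The stem cell difference differed between chemistries by the interaction term of limma in the following genes, given as R10 minus R9 on the log2 scale. It was smaller in R10 for Fabp3-ps1 (-4.70), a pseudogene whose reads may belong to Fabp3, Fbxo2 (-3.98), Miip (-3.46), Gsc (-3.40), Esx1 (-3.31) and Map11 (-3.25). It was larger in R10 for novelGene_3155 (5.76), H1f5 (4.67), Gm48643 (3.84), H1f3 (3.80), Gm49089 (3.76) and novelGene_Slc25a12_AS (3.73). Genes called with opposite signs in the 2 chemistries, H1f5 among them, gave 3.81 for mt-Rnr2, 2.68 for novelGene_Mapre1_AS, 2.63 for Gm10925, 2.36 for Gm50241, -2.03 for Prmt9, -2.28 for Eif3b, -2.66 for Macroh2a1 and -2.69 for Rpl13_Spg7, a joined locus. The causes were not tested.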

How the results depend on the processing

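The counts of genes called in R10, in R9 and in both stayed within 1.5 times their values under every alternative run, with each library left out at 6926 to 7250, 4021 to 5862 and 3192 to 4493, and 6206 in 1 fit with chemistry as a covariate. Where a setting left 1 stem cell library in a chemistry, the lone sample was assumed to vary like the other arm. Among differences of named genes 501 values lost their call, 28 gained one and 9 reversed sign with a call in at least 1 of the 2 fits compared. The other 14748 kept their call or lack of one, and a sign change without a call in either fit was counted among them. All 9 reversed in R10 with the unnumbered library alone: mt-Rnr2 -2.25, H1f5 -0.17, novelGene_Mapre1_AS -0.77, Gm10925 -0.46, Macroh2a1 0.48, Eif3b 0.23, Gm50241 -0.43, Prmt9 0.17 and Fbxo2 2.39. The cause was not tested. Of list counts 254 moved and 3162 did not.

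The 447 genes that differed between chemistries became 285 with a pseudocount of 0.25, 88 by edgeR, 286 by DESeq2, 737 with O4G stem cells, 53 with wild-type progenitors, 1375 without the unnumbered library, 72 with it alone in R10, and 72 to 1375 with each library left out. For transcript shares in R10, R9 and both (1308, 128 and 47), a gene total of at least 1 TPM gave 2153, 194 and 98, and of at least 20 TPM 580, 59 and 22. A limit of 10 points gave 2498 in R10, and of 40 points 221 in R10 and 27 in both. limma's diffSplice gave 280 in R9 and 122 in both, O4G stem cells alone 566 and 78, and the unnumbered library alone 455 in R10. With each library left out the ranges were 1201 to 1658, 0 to 659 and 0 to 89. No paired analysis was possible because the labels number only some libraries, and those numbers shared by stem cells and progenitors are fewer than 2 in each chemistry. Depth was lower in R9 than in R10, and genes near 1 CPM rest in R9 on about 1 read per library.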
